A study of Sus scrofa with 21 samples.

Results

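The 33 genes described here act in G2 and mitosis: they switch on mitosis, build and check the spindle, move the chromosomes and divide the cell. They were taken by symbol from a list of names. Where several IDs shared a symbol, the one with the highest total count was used, which applied to 1 further ID, named MKI67. All 33 were present among the 25880 genes of the deposited count table. 31 were found by the name column and 2 (CDK1 and PRC1, whose rows carry no name) by Ensembl ID in a reference table of names. All 33 passed the filter on low counts, which left 15359 genes for testing.

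The samples were hearts of neonatal pigs (Sus scrofa), and 21 bulk RNA-seq libraries, 1 per pig, fell into 8 groups. Pigs with myocardial infarction (MI) had the left descending coronary artery tied permanently on postnatal day 1, and tissue was taken at day 7 (n = 3), day 14 (n = 3) or day 28 (n = 2) from the border zone of the ischemic area. Control pigs were sampled in the matching region at day 1 (n = 2), day 3 (n = 2), day 7 (n = 3), day 14 (n = 3) and day 28 (n = 3); the titles call them naive, while the treatment text says that age-matched normal animals had the surgery without the ligation, and which applies to each pig was not settled. No transgene or other allele is named, all pigs were hand-fed bovine colostrum and milk in an incubator, and the sources used here do not give breed, sex or litter. With 2 or 3 pigs per group, p-values measure the spread between these animals only. That spread is 1 estimate per gene shared by all 8 groups. A p-value or SE below therefore does not describe the spread of the 2 groups compared alone. In whole tissue, fewer cells in the cycle and less RNA per cycling cell cannot be told apart.

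As background, commitment to mitosis rests on the kinase CDK1 with its cyclins CCNB1 and CCNB2, helped by the kinases PLK1 and AURKB. Most of these genes are held silent in resting cells by the DREAM complex, which contains a pocket protein (RBL1 or RBL2) and the MuvB core, and are switched on late in the cycle when MuvB joins MYBL2 and then FOXM1. MuvB reads a promoter element called CHR (cell cycle genes homology region), and the factor NF-Y reads CCAAT boxes next to it. In mammalian hearts most cardiomyocytes leave the cell cycle soon after birth, while fibroblasts, endothelial and immune cells can still divide.

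By role, 5 of the 33 are mitotic kinases and cyclins (CDK1, CCNB1, CCNB2, AURKB, PLK1) and 2 are transcription factors (FOXM1, MYBL2). 3 act on chromosomes: TOP2A, BIRC5 and, by its name, MKI67. BUB1, BUB1B, TTK and MAD2L1 hold the spindle checkpoint, which delays anaphase until every chromosome is attached, and CDC20 and UBE2C belong to the ubiquitin ligase that then starts anaphase. NDC80, NUF2, CENPE and CENPF sit at the kinetochore, where chromosomes meet microtubules. KIF11, KIF20A, KIF4A and KIF2C are motors, TPX2, HMMR, DLGAP5 and ASPM organise the spindle, and KIF23, ANLN, ECT2, PRC1 and RACGAP1 carry out cytokinesis.

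The promoters of the 4 genes below are shown because each holds a neighbouring pair of CCAAT boxes 31 to 34 bases apart, with CHR letters nearby in all but CCNB1. Each line gives 150 bases of the RefSeq sequence for build Sscrofa11.1, ending 25 bases after the annotated start, 5' to 3' along the gene's strand, with CCAAT (or its reverse complement ATTGG) and CHR letters (TTTGAA or TTCAAA) in capitals. The windows are chr14:64233820-64233969 (plus strand) for CDK1, chr16:47338114-47338263 (plus) for CCNB1, chr1:112942194-112942343 (minus) for CCNB2 and chr17:48018278-48018427 (plus) for UBE2C.
CDK1: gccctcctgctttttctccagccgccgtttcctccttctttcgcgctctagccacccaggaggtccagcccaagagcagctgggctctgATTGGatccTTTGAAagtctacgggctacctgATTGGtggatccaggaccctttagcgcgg
CCNB1: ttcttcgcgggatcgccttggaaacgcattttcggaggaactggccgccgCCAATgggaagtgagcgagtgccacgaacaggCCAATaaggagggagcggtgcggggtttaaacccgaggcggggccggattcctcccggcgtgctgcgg
CCNB2: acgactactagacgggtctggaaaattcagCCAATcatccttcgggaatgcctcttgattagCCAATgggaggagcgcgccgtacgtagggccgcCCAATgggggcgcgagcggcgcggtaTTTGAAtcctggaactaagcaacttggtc
UBE2C: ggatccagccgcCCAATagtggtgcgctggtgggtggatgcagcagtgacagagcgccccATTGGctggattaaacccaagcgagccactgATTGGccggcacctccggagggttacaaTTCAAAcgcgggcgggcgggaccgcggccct
Neighbouring CCAAT boxes began 32 bases apart in CDK1 and CCNB1, 32 and 33 bases apart in CCNB2, and 31 bases apart for the pair nearest the start in UBE2C. The CCNB1 window shows no CHR letters.

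Across all 33 genes, the 300 bases from 250 before to 50 after the RefSeq start were searched on both strands for CCAAT and for CHR letters (TTTGAA or TTCGAA). CHR letters were in 22 of 33 windows (66.7%), against 15.6% of 19556 protein-coding genes, and CCAAT was in 24 (72.7%), against 35.4%. Both were present in 15 (45.5%, against 6.14% of all), CHR letters alone in 7, CCAAT alone in 9, and neither in 2, MYBL2 and ANLN. 14 genes carried at least 2 CCAAT boxes, and in 4 (CDK1, CCNB1, CCNB2 and UBE2C) a neighbouring pair lay 31 to 34 bases apart. Neither count was made over all protein-coding genes, so no share stands beside them. Closer pairs lay in other genes of the 33, such as 16 bases apart in DLGAP5 and 24 in ASPM. Restricted to the 100 bases before the start, 8 genes held CHR letters (24.2%, against 4.79%) and 14 held CCAAT (42.4%, against 17.9%). A match describes letters in a window, not a bound site.

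**Figure D1:**
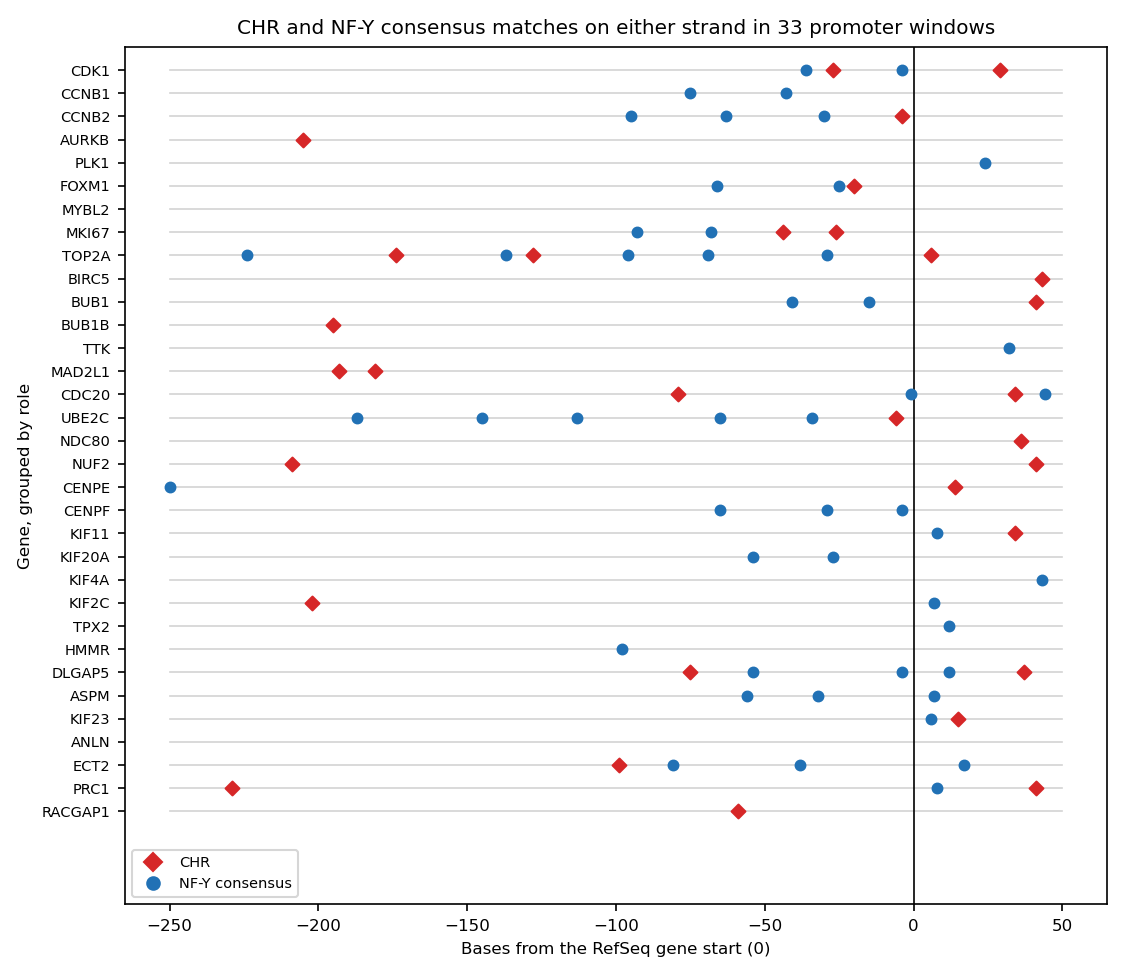
Positions of CCAAT boxes and CHR letters in the RefSeq promoter windows of the 33 genes, in bases from the annotated start (negative is before it). The MKI67 window is that of the RefSeq gene of this symbol. CHR letters were found in 22 of the 33 windows, and CDK1, CCNB1, CCNB2 and UBE2C hold CCAAT pairs 31 to 34 bases apart.

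For 32 of the 33 genes the Ensembl ID has the same symbol in the reference table of names. The exception is the row named MKI67, the gene of the proliferation antigen Ki-67: its ID, ENSSSCG00000036383, is named LGALS3BP there, a secreted glycoprotein. The deposited table holds 0 rows named LGALS3BP and 1 further ID named MKI67, with 5 counts over all libraries. The row is therefore called "the row named MKI67" here and is not read as Ki-67. Counts, group means and medians below are over all 33 unless 32 is stated. Leaving the row out moved the median log2 difference by at most 0.03, to -1.09 (MI versus naive, day 7), -0.45 (MI effect, day 28 minus day 7), 0.05 (naive day 3 versus 1), -1.09 (naive day 14 versus 7), -0.38 (naive day 28 versus 14), -0.44 (naive day 28 versus 1) and -2.07 (MI day 28 versus 14), with the other medians the same to 2 decimals.

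Library depth ran from 37002909 to 95559841 assigned counts, and the naive day 7 libraries were the shallowest (37002909 to 48321350) while the MI day 7 libraries were among the deepest (75071994 to 92831231). Levels are CPM (each count divided by the TMM-scaled library size). The mean level of the 32 genes without the row named MKI67 ran against log2 total count at r = -0.443 over the 21 libraries. A second set of 4 libraries stood apart, namely the third pig of the MI day 7 group, the second of MI day 28, the third of naive day 14 and the second of naive day 28. In them the gene ENSSSCG00000035520 was at 5.06 to 12.1 CPM, against 2819 to 8808 CPM in the other 17. The mean log2 CPM of the 33 genes ran from 0.93 to 3.73 in the 4 and from 1.06 to 5.22 in the 17. The tissue label was checked with 8 cardiomyocyte genes: 7 were in the table at a summed 30000 to 84160 CPM, while TNNI3 was at 0 in every group.

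Most of the 33 genes were high and low in the same libraries. Over 21 libraries, the median Pearson r of log2 CPM was 0.955 over 528 pairs (median Spearman rho 0.936), and it was 0.957 after each group mean was subtracted, so the genes also moved together within groups. These correlations are descriptions: every point is 1 library, and all genes of a library share its depth scaling and its tissue piece. Because the genes move together, counts of them below, also by role, are not independent observations. The shares over all tested genes are set beside such counts as a description, not a test. TPX2, which activates the kinase AURKA on the spindle, had the highest median r with the rest (0.981), and CDK1 and its partner CCNB1 ran at r = 0.991. NDC80 and NUF2, which pair in the kinetochore's microtubule grip, ran at r = 0.974, and FOXM1 with MYBL2 at 0.964.

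Not all genes followed the rest. The row named MKI67 had a median r of 0.566 with the other genes, CDC20, the activator of the anaphase ubiquitin ligase, 0.642, and ECT2, the exchange factor that starts the cleavage furrow, 0.774. CDC20 had only 3 to 30 counts per library (0.0675 to 0.595 CPM), so its levels carry large counting error. ECT2 followed TOP2A at r = 0.756, and at 0.97 without MI day 28 replicate 1 and MI day 7 replicate 3: in the first of these it was 12.03 CPM, within its range elsewhere, while TOP2A was 4.80 CPM. The other 30 genes ran at a median r of 0.962 (435 pairs, 0.835 to 0.994).

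The extreme libraries were the same for nearly all genes. Naive day 7 replicate 2 held the highest CPM of 27 genes, MI day 7 replicate 3 the lowest of 18 and MI day 28 replicate 1 the lowest of 13. Between highest and lowest library, CPM differed by a median of 22.1-fold, from 6.12-fold for ECT2 to 69.3-fold for CDK1. The spread between pigs of 1 group was itself wide: the mean log2 CPM of the 33 genes spanned 13.0-fold in MI day 7 hearts, 6.77-fold in MI day 14 and 5.4-fold in naive day 14, but 1.48-fold in naive day 7.

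**Figure D2:**
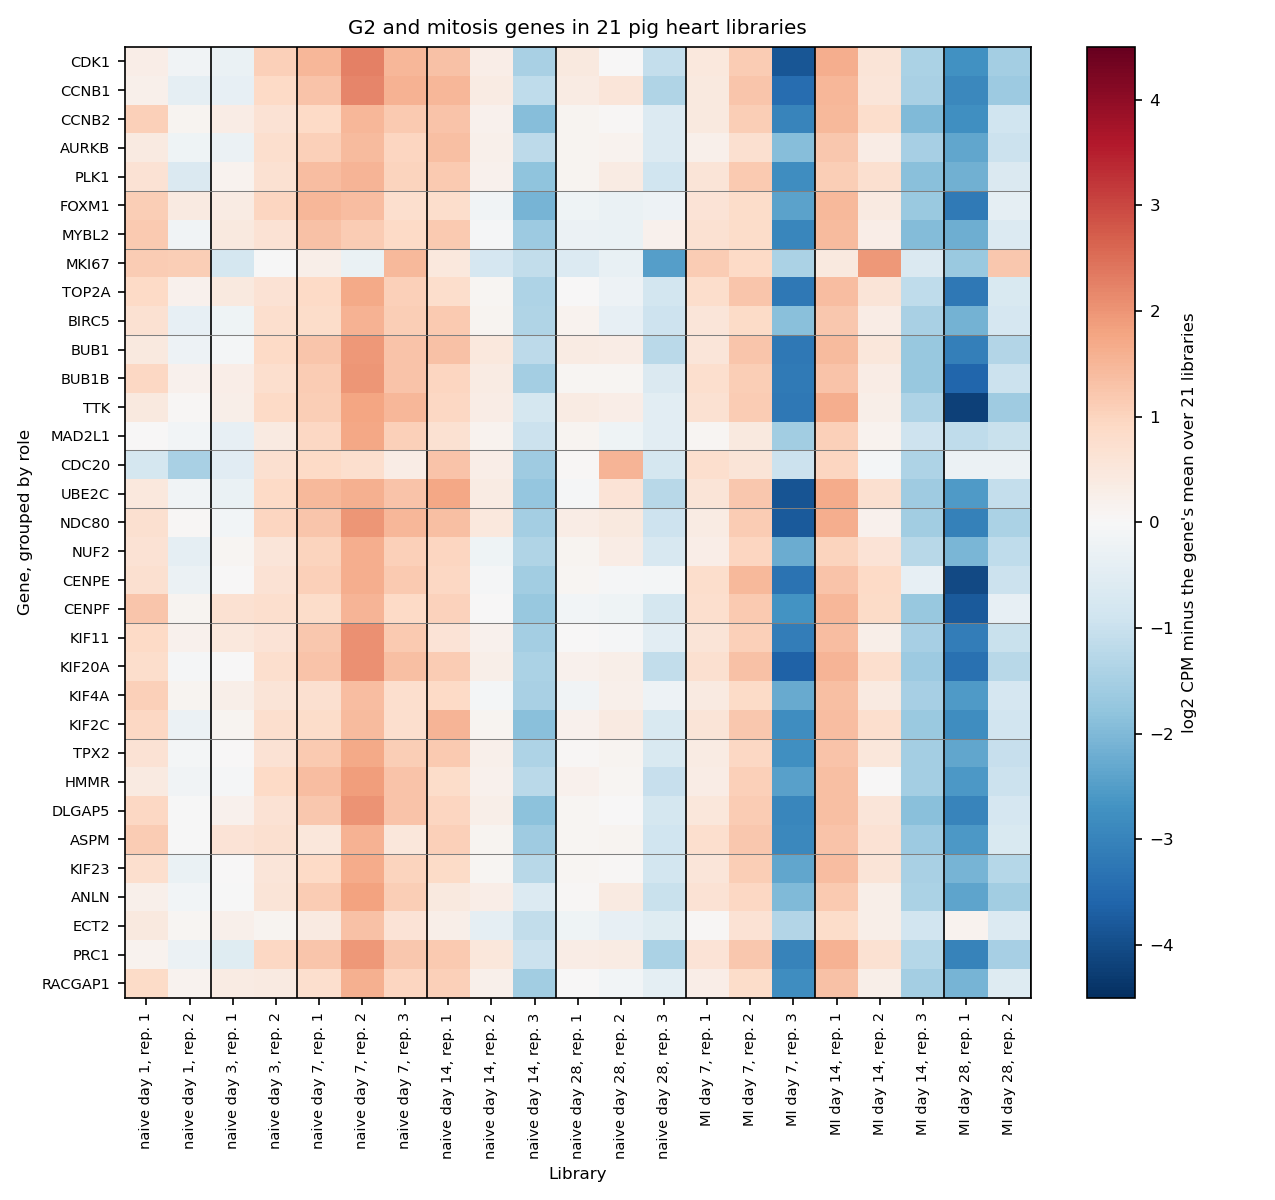
Level of the 33 genes (rows, grouped by role; the row labelled MKI67 is the row whose ID is named LGALS3BP in the reference table) in the 21 libraries (columns, by group), as log2 CPM relative to each gene's mean over all libraries. The column of naive day 7 replicate 2 is high and those of MI day 7 replicate 3 and MI day 28 replicate 1 are low for nearly all genes.

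Naive hearts showed their highest levels at day 7. The mean log2 CPM of the 33 genes lay at 3.52 and 4.26 in the 2 day 1 libraries, 3.65 and 4.29 at day 3, and between 4.65 and 5.22 at day 7, then between 2.20 and 4.64 at day 14 and between 2.81 and 3.73 at day 28. The 3 day 7 values lie above all others in naive hearts. From day 1 to day 7 the median log2 difference of the 33 genes was 1.03, against -0.01 over all 15359 tested genes, with 32 genes above 0. The groups did not overlap, day 7 above day 1, for 23 genes (69.7%), against 11.8% of all tested genes, and none lay below without overlap, against 12.9%. By role these were all 4 spindle checkpoint genes (median log2 difference 1.29), both anaphase ligase genes (1.49), 4 of 5 kinases and cyclins (1.18), 3 of 4 kinetochore genes (1.03), 3 of 4 spindle genes (1.03), 3 of 5 cytokinesis genes (0.90), 2 of 4 motors (0.77) and 2 of 3 chromosome genes (0.69), but neither transcription factor (0.46). The chromosome gene that overlapped was the row named MKI67. Summed markers also separated these days: endothelium stood at 1122 and 1691 CPM at day 1 and 733 to 953 CPM at day 7 (6 of 6 genes in the table), smooth muscle and pericyte at 1081 and 1213 against 828 to 892 CPM (6 of 6), and adipocyte at 662 and 845 against 1006 to 1445 CPM (6 of 6), with no gene of these lists at 0. LPL made up most of the adipocyte sum (406 and 736 CPM at day 1, 834 to 1195 CPM at day 7). Of the 6 adipocyte genes, 4 had a log2 difference above 0, and CIDEA was lower at day 7 without overlap. The adipocyte sum therefore does not describe the list gene by gene. Whether these markers had a part in the result was not tested.

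CDK1, the kinase that drives entry into mitosis, stood at 12.3 and 8.92 CPM in the day 1 hearts and at 27.9, 48.5 and 28.0 CPM at day 7. CCNB1 stood at 17.3 and 10.99 CPM at day 1 and at 36.0, 66.9 and 43.5 CPM at day 7. For both, each day 7 library lay above each day 1 library; the log2 differences were 1.71 ± 1.05 (SE) and 1.78 ± 1.04, with adjusted p = 0.922 for each in edgeR's quasi-likelihood test with Benjamini-Hochberg adjustment. MAD2L1, which holds the spindle checkpoint, stood at 12.5 and 11.4 CPM at day 1 and at 23.6, 41.2 and 26.0 CPM at day 7, a log2 difference of 1.34 ± 0.59 (adjusted p = 0.91). No other gene of the 33 had an unadjusted p below 0.05, a bar that 5.44% of all tested genes passed. ANLN, an actin-binding protein of the cleavage furrow, stood at 39.4 and 30.8 CPM at day 1 and at 73.8, 116 and 71.3 CPM at day 7 (log2 difference 1.31 ± 0.72).

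Other genes in the naive series followed with smaller or less separate values. AURKB, the kinase of the chromosomal passenger complex, had a day 7 minus day 1 log2 difference of 1.03 ± 0.79 and PLK1, a mitotic entry and spindle kinase, 1.18 ± 0.96, both without overlap. TOP2A, which disentangles sister DNA, had 0.69 ± 0.93, while FOXM1 (0.46 ± 0.92) and MYBL2 (0.46 ± 0.93) overlapped between the days. CDC20 had 1.73 ± 0.95 on its few counts, and the row named MKI67 had -0.47 ± 0.88.

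No member passed an adjusted p of 0.05 in this comparison: edgeR called 0 of 15359 genes (0%) and DESeq2 12 (0.0781%), none of the 33. Between day 1 and day 3 the median log2 difference was 0.04, edgeR called 0 genes (0%) and DESeq2 3 (0.0195%), none of the 33, and 3.54% of tested genes and 0 of the 33 had an unadjusted p below 0.05. There the 2 groups did not overlap for CDC20, higher at day 3 (19.7% of tested genes were higher without overlap; log2 difference 1.30), and for the row named MKI67, lower at day 3 (17.3% were lower; -1.48 ± 1.00).

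After day 7 the naive values lay lower again. From day 7 to day 14 all 33 log2 differences were below 0, with a median of -1.08 against 0.04 over all tested genes, and 15 genes (45.5%) did not overlap, against 6.8% of all tested genes (10.1% were higher without overlap, none of the 33). TOP2A stood at 83.2, 146 and 93.8 CPM at day 7 and at 77.2, 47.5 and 17.0 CPM at day 14. ECT2 stood at 14.2, 26.5 and 16.4 CPM at day 7 and at 12.8, 8.11 and 4.93 CPM at day 14. Both pairs of groups are separate, but narrowly, since the highest day 14 library lay close to the lowest day 7 library. The log2 differences were -1.19 ± 0.83 for TOP2A (adjusted p = 0.715), -1.14 ± 0.47 for ECT2 (adjusted p = 0.499), -1.18 ± 0.51 for MAD2L1 (adjusted p = 0.533) and -1.27 ± 0.63 for ANLN (adjusted p = 0.589) in edgeR. CDK1 had -1.35 ± 0.90, CCNB1 -1.14 ± 0.88, AURKB -0.70 ± 0.69, PLK1 -1.02 ± 0.84, FOXM1 -1.33 ± 0.83, MYBL2 -0.88 ± 0.83 and the row named MKI67 -0.95 ± 0.81.

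edgeR called 0 genes here (0%), with 8.84% at an unadjusted p below 0.05 including 2 of the 33 (ECT2 and MAD2L1), and DESeq2 called 96 (0.625%), none of the 33. From day 14 to day 28 the median was -0.39 (0.29 without naive day 14 replicate 1), edgeR and DESeq2 called 0 genes (0%), 1.15% of tested genes and 0 of the 33 had an unadjusted p below 0.05, and 0 of the 33 were lower without overlap against 3.02% of all (higher, 0 against 1.74%). BIRC5, the survivin subunit of the passenger complex, had -0.64, UBE2C, the ubiquitin-conjugating enzyme of the anaphase ligase, -0.77, AURKB -0.53 and CDC20 0.16. Against day 1, day 28 hearts had a median of -0.46; 9 genes were lower without overlap (12.5% of all tested genes) and none was higher (12.6%), 8 of them besides the row named MKI67. Those 8 were TOP2A, CCNB2, BUB1B, CENPF, KIF11, ECT2, RACGAP1 and FOXM1, and edgeR called 0 genes (0%) and DESeq2 0, with 5.27% and only the row named MKI67 (-2.02 ± 0.89, adjusted p = 0.867) at an unadjusted p below 0.05. ECT2 had -0.62 and CDC20 1.63 in that comparison.

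**Figure D3:**
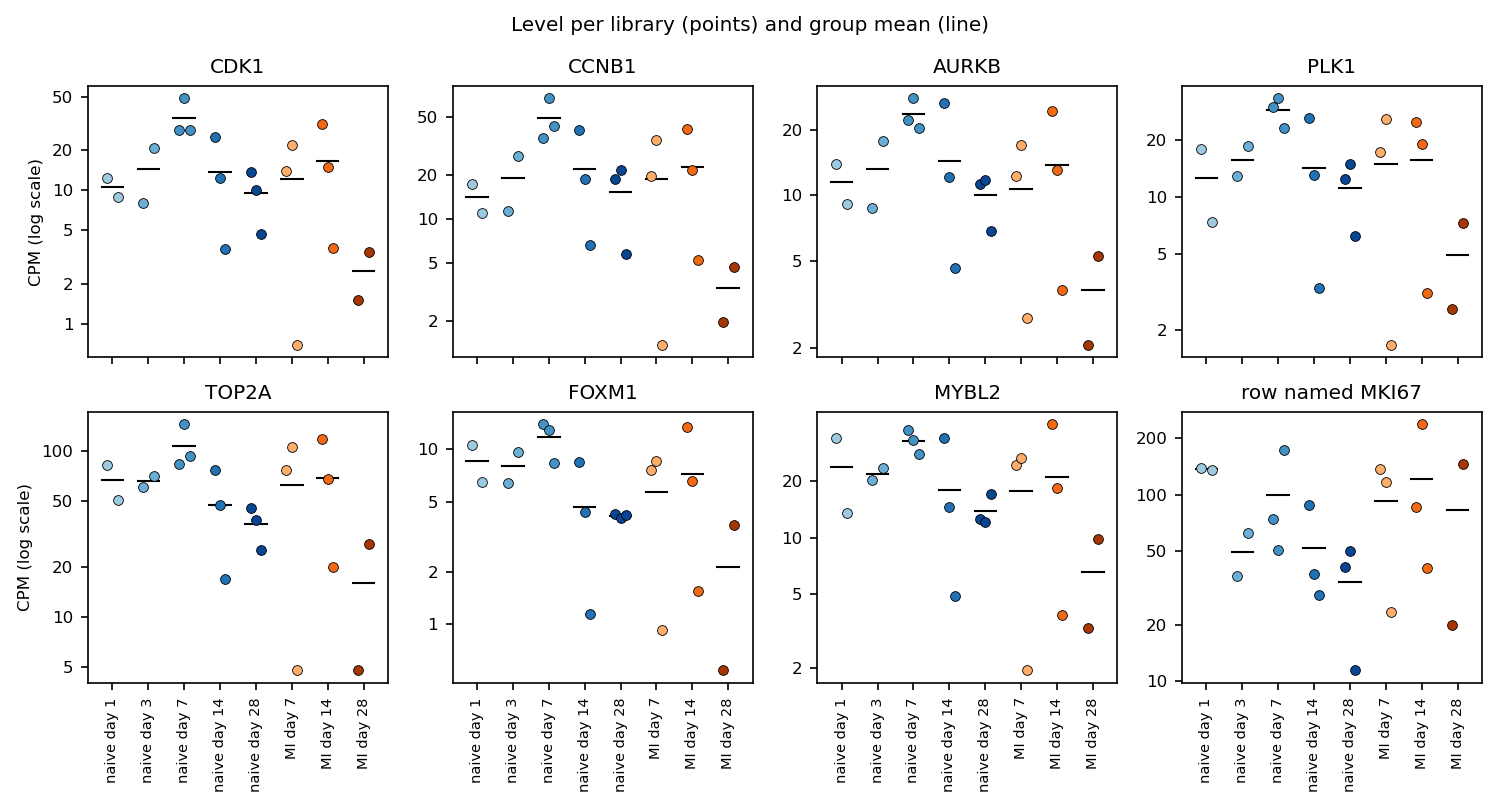
CPM on a log scale of CDK1, CCNB1, AURKB, PLK1, TOP2A, FOXM1, MYBL2 and the row named MKI67 in each library (points; lines are group means) by group, naive in blue and MI in orange. The CDK1 points of naive day 7 sit between 27.9 and 48.5, above all day 1 and day 3 libraries, and the 2 MI day 28 points sit at 1.51 and 3.44.

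MI hearts at day 7 held lower values than naive day 7 hearts for all 33 genes, with 1 library far below the others. The median log2 difference was -1.08 (range -1.52 to -0.10, or to -0.35 without the row named MKI67), against 0.03 over all tested genes, and 15 genes (45.5%) did not overlap, against 10.4% of all tested genes; none was higher without overlap, against 13.9%. CDK1 stood at 14.0, 21.8 and 0.700 CPM in MI and at 27.9, 48.5 and 28.0 CPM in naive hearts. CCNB1 stood at 19.8, 34.9 and 1.37 CPM in MI and at 36.0, 66.9 and 43.5 CPM in naive hearts. For both, all 3 MI libraries lay below all 3 naive libraries, and MI replicate 3 lay far below the other MI libraries.

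The differences did not pass the threshold. CDK1 had a log2 difference of -1.52 ± 0.90 (adjusted p = 0.516), CCNB1 -1.38 ± 0.89 (0.547 adjusted), AURKB -1.14 ± 0.69 (0.525 adjusted) and HMMR, a spindle-associated hyaluronan receptor, -1.30 ± 0.75 (0.5 adjusted) in edgeR. MAD2L1, at 13.1, 16.9 and 4.22 CPM in MI against 23.6, 41.2 and 26.0 CPM in naive hearts, had -1.41 ± 0.51 (adjusted p = 0.289) and did not overlap. PLK1 had -0.94 ± 0.83, TOP2A -0.78 ± 0.82, FOXM1 -1.04 ± 0.82, MYBL2 -0.89 ± 0.83 and ECT2 -0.83 ± 0.46, and the row named MKI67 -0.10 ± 0.80. edgeR called 0 genes (0%), with 12.4% of tested genes and 1 of the 33 (MAD2L1) at an unadjusted p below 0.05, and DESeq2 called 263 (1.71%), none of the 33.

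MI replicate 3 belongs to the second set of libraries. Without it the median was -0.56, and without MI replicate 2 it was -1.65. In MI replicate 3, summed fibroblast markers (8 of 8 in the table) stood at 1315 CPM, at the bottom of a range up to 6560 CPM in MI day 7 hearts, against 6127 to 7068 CPM in naive day 7 hearts, none at 0. The neutrophil markers (5 of 6 in the table) stood at 1.05 to 30.0 CPM in MI against 1.11 to 2.65 CPM in naive hearts. The erythroid markers (6 of 7 in the table) separated the groups, at 65.7 to 109.8 CPM in MI against 169.9 to 453.4 CPM in naive hearts, where KLF1 was at 0. The part of these markers in the result was not tested.

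At day 14 the groups overlapped for every one of the 33 genes, against 4.49% of tested genes lower and 3.73% higher without overlap. CDK1 stood at 31.4, 14.8 and 3.72 CPM in MI and at 24.9, 12.3 and 3.67 CPM in naive hearts. MYBL2, the factor that joins MuvB first, stood at 40.5, 18.5 and 3.88 CPM in MI and at 34.02, 14.6 and 4.90 CPM in naive hearts. Both groups spread over roughly the same low, middle and high values. The median log2 difference was 0.23 (31 of 33 above 0), with CDK1 at 0.28 ± 0.89, CCNB1 at 0.03 ± 0.87, AURKB at -0.08 ± 0.68, PLK1 at 0.14 ± 0.83, TOP2A at 0.54 ± 0.82, FOXM1 at 0.62 ± 0.82, MYBL2 at 0.23 ± 0.82 and the row named MKI67 at 1.25 ± 0.81. ECT2 was at 0.54 ± 0.46, CENPE, a kinetochore motor, at 0.64 ± 0.84 and CDC20 at -0.30 ± 0.77. edgeR called 0 genes (0%) with 5.35% at an unadjusted p below 0.05 and 0 of the 33; DESeq2 called 14 (0.0912%), none of the 33. The direction of these day 14 values depends on single libraries: the median ran from -0.46 without MI replicate 1 to 0.99 without naive replicate 1.

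At day 28 MI hearts had the lowest mean log2 CPM of the 33 genes among the 8 groups (1.88, with libraries at 1.06 and 2.70, against 2.81 to 3.73 in naive hearts). 22 genes (66.7%) were lower in MI than in naive hearts without overlap, against 21.4% of all tested genes, and none was higher, against 16.4%. The median log2 difference was -1.44, against 0.00 over all tested genes, and 31 of 33 were below 0; the exceptions were ECT2 (0.19 ± 0.51) and the row named MKI67 (1.28 ± 0.88). By role, all 4 spindle checkpoint genes (median -1.79), all 4 motors (-1.55) and both transcription factors (-1.03) were lower without overlap, as were 4 of 5 kinases and cyclins (-1.44), 4 of 5 cytokinesis genes (-1.47) and 3 of 4 kinetochore genes (-1.66). Most spindle genes overlapped (1 of 4 separate, median -1.35), as did both anaphase ligase genes (-1.21) and all 3 chromosome genes (-0.97). Those 3 were TOP2A (-1.16), BIRC5 (-0.97) and the row named MKI67 (1.28).

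TTK, the kinase that starts the spindle checkpoint, stood at 10.2, 9.84 and 5.76 CPM in naive and at 0.435 and 2.59 CPM in MI hearts. ANLN stood at 34.2, 44.4 and 16.7 CPM in naive and at 6.45 and 11.2 CPM in MI hearts. PRC1, which bundles the microtubules of the midzone, stood at 38.1, 39.8 and 11.5 CPM in naive and at 3.84 and 10.8 CPM in MI hearts. In all of them both MI libraries lay below all naive libraries, though PRC1 in the third naive library came close to the higher MI one. The log2 differences were -2.51 ± 1.02 for TTK (adjusted p = 0.129 in edgeR and 0.0365 in DESeq2) and -1.85 ± 0.75 for ANLN (adjusted p = 0.125 in edgeR and 0.0517 in DESeq2).

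CDK1 stood at 13.6, 10.1 and 4.74 CPM in naive and at 1.51 and 3.44 CPM in MI hearts, a log2 difference of -1.94 ± 1.08 (adjusted p = 0.258). CCNB1 stood at 18.7, 21.5 and 5.76 CPM in naive and at 1.97 and 4.72 CPM in MI hearts, a log2 difference of -2.20 ± 1.08 (0.2 adjusted). FOXM1 stood at 4.25, 4.03 and 4.23 CPM in naive and at 0.544 and 3.69 CPM in MI hearts, a log2 difference of -0.98 ± 0.95. For these the groups were separate, but the lowest naive library lay close to the higher MI library. AURKB had -1.44 ± 0.81, PLK1 -1.19 ± 0.97, TOP2A -1.16 ± 0.95 and MYBL2 -1.08 ± 0.96, of which PLK1 and TOP2A overlapped.

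Among all tested genes edgeR called 1053 at day 28 (6.86%), but none of the 33; 27% of tested genes and 2 of the 33 (TTK and ANLN) had an unadjusted p below 0.05. DESeq2 called 2205 (14.4%), including 1 of the 33, TTK. The median was -0.82 without MI replicate 1, -2.49 without MI replicate 2 and -2.32 with the second set of 4 libraries left out. Each of these fits leaves 1 MI day 28 library. A term for the second set, which keeps all libraries, gave a median of -1.17.

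Markers of other cell types differed beside these values. Summed cardiomyocyte markers stood at 30000 and 39310 CPM in MI hearts, against 58370 to 71330 CPM in naive hearts, with TNNI3 at 0 in both. Summed macrophage and monocyte markers stood at 287 and 3023 CPM, against 63.2 to 339 CPM, so 1 MI library lay within the naive range. At an adjusted p below 0.05 in edgeR, which 6.86% of all tested genes passed, 6 of 9 were called higher. So were 3 of 6 smooth muscle and pericyte, 3 of 6 adipocyte, 2 of 8 lymphocyte and 2 of 5 neutrophil genes. The same held for 1 of 8 fibroblast and 1 of 3 epicardial genes, and 1 of 6 cardiomyocyte genes was called lower. Called or not, log2 differences were above 0 for 9 of 9 macrophage and monocyte, 8 of 8 fibroblast and 8 of 8 lymphocyte genes. They were above 0 for 5 of 5 neutrophil, 6 of 6 adipocyte, 3 of 3 epicardial, 4 of 6 smooth muscle and pericyte and 0 of 6 cardiomyocyte genes. Epicardial sums stood at 34.8 and 103.7 CPM, against 15.3 to 17.2 CPM, without overlap. Smooth muscle and pericyte sums were 1598 and 690 CPM, against 869 to 956 CPM. Adipocyte sums were 2372 and 472 CPM, against 477 to 1157 CPM. For both of these lists MI replicate 1 lay above every naive day 28 library and MI replicate 2 below every one. Fibroblast markers stood at 1750 and 20120 CPM, against 3750 to 6465 CPM, and neutrophil markers (5 of 6 in the table) at 5.36 and 39.7 CPM, against 0.786 to 0.946 CPM. The marker sums differed widely between the 2 MI libraries, of which replicate 2 belongs to the second set and replicate 1 does not, so pig and library set cannot be told apart there. The part of these markers in the result was not tested.

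**Figure D4:**
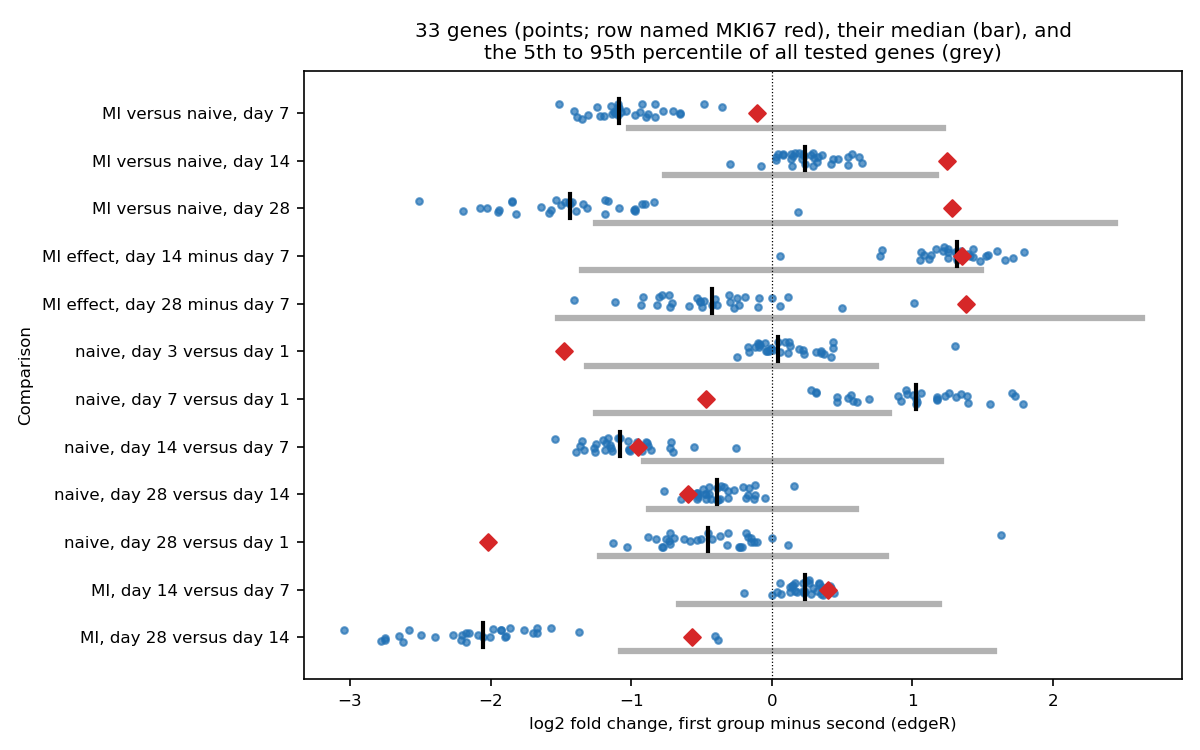
Log2 difference of each of the 33 genes in each comparison (points; the row named MKI67 is the red diamond), their median (bar) and the 5th to 95th percentile of all 15359 tested genes (grey). In MI versus naive at day 28 the median is -1.44 and at day 14 it is 0.23.

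Within the MI series, values overlapped between days 7 and 14, and the group mean was lowest at day 28. The mean log2 CPM of the 33 genes was 1.06 and 2.70 in the day 28 libraries. It ran from 2.16 to 4.92 at day 14 and from 0.93 to 4.63 at day 7, so day 28 overlapped both. MI days 28 and 7 were not tested against each other directly. Between days 7 and 14 the median was 0.23; AURKB had 0.36, MAD2L1 0.42, CDK1 0.45 and CDC20 -0.20, with 0 genes called by edgeR (0%), 4.07% of tested genes and 0 of the 33 at an unadjusted p below 0.05, and 33 genes called by DESeq2 (0.215%), none among the 33 described. Without overlap, 0 of the 33 were higher (3.72% of tested genes) or lower (3.91%). From day 14 to day 28 all 33 values were below 0 (median -2.05, against 0.01 over all tested genes), and 17 of the 33 (51.5%) had an unadjusted p below 0.05, against 14.9% of tested genes. TTK stood at 24.8, 9.54 and 3.04 CPM at day 14 and at 0.435 and 2.59 CPM at day 28, a log2 difference of -3.04 ± 1.05 (adjusted p = 0.239). ANLN had -2.27 ± 0.76 (0.238 adjusted in edgeR), PRC1 -2.78 ± 1.04, CDK1 -2.75 ± 1.12 and CCNB1 -2.75 ± 1.10, all without overlap. The gaps were narrow. CDK1 stood at 3.72 CPM in the lowest day 14 library and at 3.44 CPM in the higher day 28 library. For CCNB1 these were 5.27 and 4.72 CPM, for PRC1 12.4 and 10.8 CPM and for ANLN 12.4 and 11.2 CPM.

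7 genes were lower without overlap (21.2%), against 12.6% of tested genes, and none was higher, against 10.7%. By role the medians were -2.33 for spindle checkpoint, -2.28 for kinetochore, -2.21 for cytokinesis, -2.20 for kinase and cyclin and -2.17 for motor genes. AURKB had -1.90 ± 0.82, PLK1 -1.67 ± 0.99, TOP2A -2.09 ± 0.99, FOXM1 -1.76 ± 0.98, MYBL2 -1.67 ± 0.98 and the row named MKI67 -0.56 ± 0.91. edgeR called 6 of all tested genes (0.0391%), none of the 33, and DESeq2 called 278 (1.81%), including TTK (adjusted p = 0.0356) and ANLN (adjusted p = 0.0486). With the second set of 4 libraries left out, edgeR called 6 of the 33: TOP2A, BUB1B, TTK, CENPE, CENPF and KIF11. That setting leaves 1 MI day 28 library, which is assumed to vary like the other groups. Its median from MI day 14 to day 28 was -3.32, against -2.05 in the main fit and -1.39 with a term for the second set.

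The difference between MI effects at 2 days was tested as an interaction. From day 7 to day 14 the effect of MI on the 33 genes differed by a median of 1.32 (0.45 with the second set of libraries left out). In the main fit all 33 values were above 0, up to 1.80 for CDK1. The smallest unadjusted p-values were those of MAD2L1 (1.60 ± 0.72, adjusted p = 0.681), ECT2 (1.37 ± 0.66, adjusted p = 0.713) and KIF11, the motor that pushes spindle poles apart (1.71 ± 1.14, adjusted p = 0.81). edgeR called 1 gene (0.00651%), not one of the 33, with 7.07% of tested genes and 1 of the 33 at an unadjusted p below 0.05, and DESeq2 called 33 (0.215%), none of the 33 described. From day 7 to day 28 it differed by a median of -0.42, with TTK at -1.41, ECT2 at 1.01 and the row named MKI67 at 1.38; edgeR called 2 genes (0.013%) and DESeq2 695 (4.53%), none of the 33 in either, and 19% of tested genes and 0 of the 33 had an unadjusted p below 0.05. With the second set left out, the median for day 28 minus day 7 was -1.76, on 1 MI day 28 library. A term for that set gave -0.20. The naive groups at days 7, 14 and 28 enter several of these comparisons, which are therefore not independent.

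Other genes of the pathway were read from lists. Of 53 further G2 and mitosis genes counted, 52 were tested, and the mean of the 32 genes without the row named MKI67 followed their mean at r = 0.998 over 21 libraries; 46 of the 52 had r above 0.8 with it, against 1.63% of all tested genes. Their medians were -0.85 for MI versus naive at day 7, 0.21 at day 14 and -1.17 at day 28, and 0 of the 52 passed the threshold in any comparison. S phase genes (34 tested) followed at r = 0.923, with 19 above 0.8 and medians of -1.02, 0.15 and -0.86 at days 7, 14 and 28, and 0 passed the threshold.

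Regulators behaved less uniformly. Of 13 DREAM, MuvB and pocket protein genes 1 passed the threshold at day 28, a share near the 6.86% of all tested genes and so no result about the list. This was RBL1, a pocket protein, which was at 26.2, 19.9 and 36.7 CPM in naive and at 14.98 and 12.9 CPM in MI hearts and fell by 0.99 on the log2 scale (adjusted p = 0.0347 in edgeR). RBL2, a related pocket protein, was not called; it ran against the mean of the 32 genes (r = -0.794, and -0.514 without MI day 7 replicate 3 and MI day 28 replicate 1), where it stood at 120 and 131 CPM. MYBL1, a MYBL2 relative, ran with the mean at r = 0.911.

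2 of 12 CDK inhibitors and G2 brakes passed at day 28, where 6.86% of all tested genes did, and both rose in MI. BTG2, an antiproliferative p53 target, was at 78.6, 93.4 and 45.2 CPM in naive and at 229 and 274 CPM in MI hearts, a log2 difference of 1.80 (adjusted p = 0.0266). GADD45B, a stress gene, was at 18.9, 17.3 and 23.7 CPM in naive and at 113 and 33.9 CPM in MI hearts, 1.88 (adjusted p = 0.0294). In the MI series GADD45G rose from day 14 (33, 26.7 and 21.01 CPM) to day 28 (142 and 91.4 CPM), by 2.12 (adjusted p = 0.0219). CDKN2C, an inhibitor of CDK4 and CDK6, ran with the mean of the 32 genes at r = 0.961.

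In the core of the anaphase ubiquitin ligase, CDC23 was at 7.48, 8.31 and 9.19 CPM in naive and at 2.24 and 4.40 CPM in MI day 28 hearts and fell by 1.33 on the log2 scale (adjusted p = 0.026). It was 1 of 14 tested, a share near the 6.86% of all tested genes. All 5 of these calls depended on single libraries. Of 5 fits that each left out 1 library, RBL1 was still called in 1 (lost without naive replicate 1 or 3 or either MI pig, adjusted p up to 0.128) and GADD45B in 1 (lost without any naive pig or MI replicate 1, up to 0.332). BTG2 was still called in 2 (lost without naive replicate 1 or 3 or MI replicate 2, up to 0.1), CDC23 in 2 (lost without naive replicate 2 or 3 or MI replicate 1, up to 0.117) and GADD45G in 3 (lost without day 14 replicate 1 or 3, up to 0.101). BTG2 was also lost with the second set left out, and GADD45G with a term for that set.

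The row named MKI67 did not follow the other genes. It stood at 140 and 135 CPM in naive day 1 hearts, 36.6 and 62.2 at day 3, 74.4, 50.5 and 173 at day 7, 87.9, 37.4 and 28.8 at day 14, and 40.9, 49.7 and 11.4 at day 28. In MI hearts it stood at 138, 116 and 23.5 CPM at day 7, 85.8, 240 and 40.4 at day 14, and 19.8 and 145 at day 28. Its r was 0.629 with TOP2A but 0.918 with TAP2, a peptide transporter of antigen presentation, and 0.918 with BST2, which tethers budding virus. Further genes nearest to it were TRIM22 (0.912), PARP9 (0.909), UBE2L6 (0.902) and NMI (0.897), which are known as interferon-induced genes. TOP2A ran with TAP2 at r = 0.602 and with BST2 at 0.501, and the genes nearest to TOP2A were BUB1B (0.989), KIF11 (0.988) and CKAP2L (0.988).

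**Figure D5:**
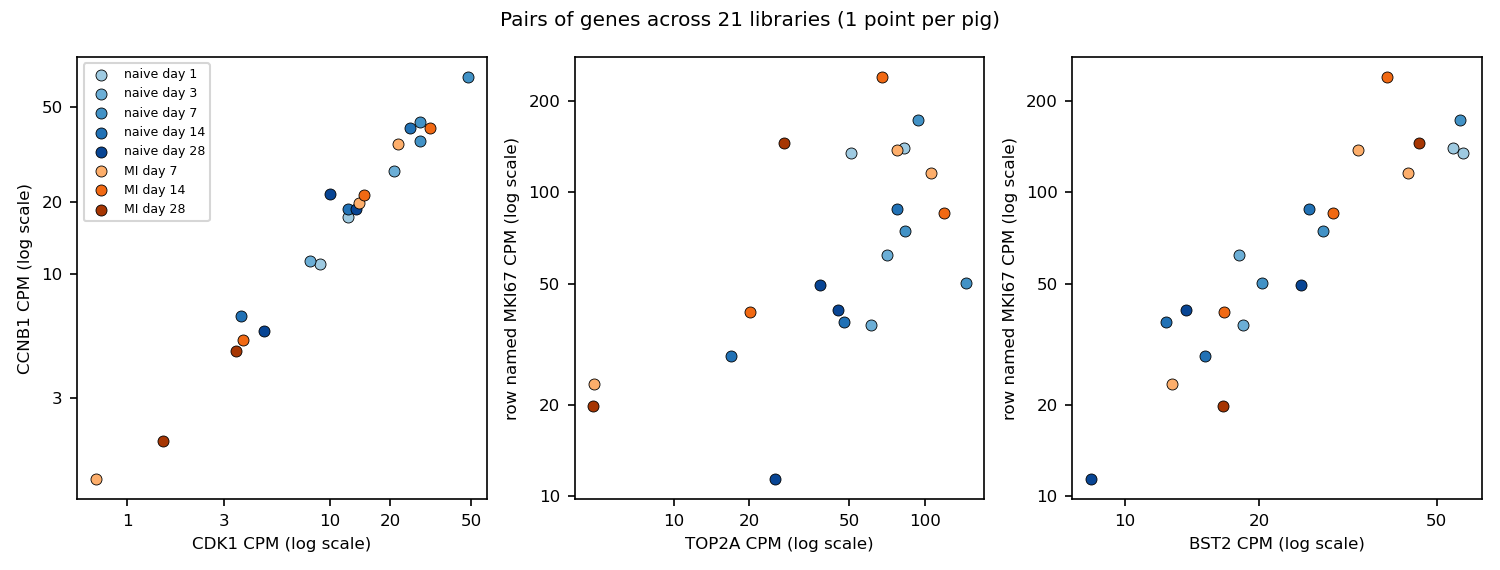
CPM of gene pairs on log axes, 1 point per pig, coloured by group. CCNB1 follows CDK1 (r = 0.991), the row named MKI67 spreads widely against TOP2A (r = 0.629), and it follows BST2 (r = 0.918).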

How the data were processed

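Whole-gene counts per Ensembl gene, deposited by the authors as 1 table, were used as given; per the submitters' processing notes the tools were Trim Galore, STAR 2.5.2, HTSeq 0.6.1 and DESeq2 with build Sscrofa11.1, and no source names the annotation release or the strand setting. With the strand unknown, reads of a gene and an overlapping antisense gene cannot be told apart. Groups came from the labels. The counts were scaled by TMM, filtered with filterByExpr and fitted in 1 model over all 21 libraries and 8 groups with edgeR 4.0.16 (quasi-likelihood F test, robust, Benjamini-Hochberg adjustment over 15359 genes, threshold 0.05) in R 4.3.3; the biological coefficient of variation was 0.373 with 13 residual degrees of freedom. Each SE (the value after ±) is the size of the log2 difference divided by the square root of its F statistic. Correlations used log2 CPM with a prior count of 2. DESeq2 1.42.0, median-ratio scaling, no filter, a term for the second library set, leaving that set out, and leaving out each library were alternatives. The fit was tested on simulated counts. No 2 libraries of a group agreed within sampling noise. Of the per-library columns, none was left unused. The rule for the 33 genes uses symbols, and total counts only to choose between IDs that share a symbol. However, the set, the lists and the genes named were chosen with earlier results of these data known: 8 genes were named in the main comparisons, besides the 3 with the smallest p and the one with the largest opposite difference. Other genes set out with values (such as PRC1 at day 28, RBL2, MYBL1 and CDKN2C) were chosen after their values were seen.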

Additional observations from a re-analysis of the deposited data

How the results depend on the processing

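No paired analysis was possible because the labels carry no replicate numbers that groups share. Leaving out the second set, or either MI day 28 pig, leaves 1 MI day 28 library. Counts for MI day 28 from those fits rest on that 1 pig. Of the 33 genes, 0 were called in every fit that left out 1 library; DESeq2 called 1 at day 28 (MI versus naive) and 2 between MI days 14 and 28; with the second set left out these were 2 and 6, and the MI effect of day 28 minus day 7 gave 1 (CENPE). For all tested genes, the count at day 28 was 1053, against 2205 in DESeq2, 646 with a term for the second set and 17 (without naive replicate 3) to 1162 (without MI replicate 1) when 1 library was left out; between MI days 14 and 28 it was 6, against 278, 0 with the term, 765 without the second set and 0 (without day 14 replicate 1) to 403 (without day 28 replicate 2), and for the MI effect of day 28 minus day 7 it was 2, against 695, 1, 367 and 1 to 528 (without MI day 28 replicate 1).

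Log2 differences changed sign without the second set for the row named MKI67 (MI versus naive: day 7 0.31, day 28 -0.38; effect of day 28 minus day 7 -0.69), for CDK1 -0.14, CCNB1 -0.38, PLK1 -0.30 and MYBL2 -0.19 (MI versus naive, day 14), CDC20 -1.12 (naive day 28 versus 14), and AURKB -0.074 and CDK1 -0.091 (MI day 14 versus 7); with a term for the set, CCNB1 was -0.073 (day 14). Leaving out 1 library, values that crossed 0 ran, for MI versus naive at day 14, from -0.11 to 1.13 for TOP2A, -0.56 to 1.09 for CDK1, -0.72 to 0.87 for CCNB1, -0.79 to 0.75 for AURKB, -0.36 to 0.96 for PLK1, -0.21 to 1.41 for FOXM1, -0.68 to 1.14 for MYBL2 and -1.01 to 0.48 for CDC20. The row named MKI67 ran from -0.51 to 0.53 (MI versus naive, day 7), -0.75 to 2.13 (day 28), -0.60 to 2.27 (effect of day 28 minus day 7) and -2.62 to 0.39 (MI day 28 versus 14). In the naive series, PRC1 ran from -0.55 to 0.95 (day 3 versus 1), MYBL2 from -0.069 to 1.30 (day 7 versus 1), and at day 28 versus 14 BIRC5 from -1.08 to 0.13, UBE2C from -1.28 to 0.31, AURKB from -0.97 to 0.28 and CDC20 from -0.70 to 0.92; at MI day 14 versus 7 MAD2L1 ran from -0.18 to 0.82, AURKB from -0.35 to 0.87, CDK1 from -0.40 to 1.17 and CDC20 from -0.91 to 0.22. The medians of the 33 genes kept their sign in each such fit for MI versus naive at days 7 and 28, naive day 7 versus 1, 14 versus 7 and 28 versus 1 (though up to -0.015, without day 1 replicate 1), MI day 28 versus 14, and the MI effect of day 14 minus day 7. They crossed 0 for MI versus naive at day 14 (-0.46 to 0.99), the MI effect of day 28 minus day 7 (-1.51 to 0.22), naive day 3 versus 1 (-0.36 to 0.54), naive day 28 versus 14 (-0.84 to 0.29) and MI day 14 versus 7 (-0.47 to 0.87). Within 100 bases before the start, promoters with CHR letters numbered 8 and with CCAAT 14. The causes were not tested. With CDC20 at 3 to 30 counts, its differences are limited by counting.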
